A study of Mus musculus with 15 samples.

Results

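P2ry12, P2ry13, Gpr34, Cx3cr1, Csf1r, Siglech, Tmem119, Olfml3 and Sall1 are 9 genes that microglia, the resident macrophages of the brain, keep at a high level in the unstimulated, or homeostatic, state. They were picked by name, matching gene symbol to Ensembl identifier, and are 9 of the 43629 genes counted. RNA was sequenced from the whole brain of 15 wildtype male C57BL/6J mice in 4 groups. The young mice were labelled 3 months old and the old mice 24 months. When analyses began, the study's methods give a lower age for the old mice and the labelled age for the young mice. They place pathology weeks after that start, and state no age at which brains were taken for RNA. Mice of either age were fed ad libitum (AL) or every other day. The labels call the second diet IF and the study calls it EOD, so the groups 3M_AL (n = 4), 3M_IF (n = 3), 24M_AL (n = 4) and 24M_IF (n = 4) are called young AL, young IF, old AL and old IF below. Every-other-day feeding started shortly before the young mice were analysed, so young IF mice had a short treatment and old IF mice a nearly lifelong one. Each mouse gave 1 library. The comparisons ask whether these genes changed with age and whether the diet altered their level or their change with age.

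Microglia survive on signals through Csf1r, the receptor of the growth factors Csf1 and Il34. They survey the tissue with processes steered by P2ry12, a receptor of ADP that leaks from injured cells, and they are in contact with neurons through Cx3cr1, the receptor of the neuronal chemokine Cx3cl1 (fractalkine). In ageing and in models of neurodegeneration some microglia are known to lower homeostatic genes and to raise a set called disease-associated, of which Trem2, Itgax and Lyz2 are members. Csf1r and Cx3cr1 are also made by other macrophages and by monocytes, whereas P2ry12, Tmem119, Siglech and Sall1 set microglia apart from them. In whole brain tissue, fewer cells of a type and less RNA per cell cannot be told apart.

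On GRCm38, the build of the deposited counts, P2ry13 (chromosome 3, 59207896 to 59210882, minus strand) and P2ry12 (59216271 to 59262831, minus strand) are neighbours with 5388 bases between them. Both lie inside the span of Med12l on the opposite strand, and neither shares an exon base with it. Olfml3 lies elsewhere on chromosome 3 (103733700 to 103738001, minus strand). Cx3cr1 lies on chromosome 9 (119901616 to 120068283, minus strand), Tmem119 on chromosome 5 (113793729 to 113800516, minus strand) and Siglech on chromosome 7 (55768178 to 55778925, plus strand). Sall1 lies on chromosome 8 (89027248 to 89044162, minus strand) and Gpr34 on the X chromosome (13632089 to 13640858, plus strand). Reads were counted by strand, over all exons of a gene. Olfml3 shares exon bases with ENSMUSG00000091115, a gene with 5 counts over all mice.

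Windows of 6 of the 9 genes were taken from the RefSeq promoter table (GRCm38.p6). Tmem119 and Gpr34 had no window there. Csf1r was not looked up, so it may still have one. The windows of 4 genes are shown here. P2ry13 and P2ry12 are neighbours whose levels are compared below, and Cx3cr1 and Olfml3 are among the genes whose levels rose with age. Each window is the 250 bases before the RefSeq start site, 5′ to 3′ on the gene's strand. Matches to a searched motif are in capitals.
P2ry13, chr3:59210883-59211132, minus strand: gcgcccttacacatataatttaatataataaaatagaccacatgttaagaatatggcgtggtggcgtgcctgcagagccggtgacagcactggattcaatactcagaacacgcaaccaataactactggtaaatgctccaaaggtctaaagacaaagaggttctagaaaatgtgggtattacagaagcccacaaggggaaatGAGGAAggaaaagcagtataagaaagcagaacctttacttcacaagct
P2ry12, chr3:59262986-59263235, minus strand: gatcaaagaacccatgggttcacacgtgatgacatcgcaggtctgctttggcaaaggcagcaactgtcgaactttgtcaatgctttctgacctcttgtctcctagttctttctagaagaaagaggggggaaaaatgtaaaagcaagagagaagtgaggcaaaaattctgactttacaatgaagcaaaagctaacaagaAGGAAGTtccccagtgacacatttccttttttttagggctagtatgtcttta
Cx3cr1, chr9:120068297-120068546, minus strand: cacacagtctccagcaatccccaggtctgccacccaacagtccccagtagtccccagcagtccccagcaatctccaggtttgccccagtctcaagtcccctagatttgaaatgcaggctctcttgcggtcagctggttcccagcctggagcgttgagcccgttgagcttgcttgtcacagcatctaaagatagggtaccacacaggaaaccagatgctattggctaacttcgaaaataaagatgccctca
Olfml3, chr3:103738002-103738251, minus strand: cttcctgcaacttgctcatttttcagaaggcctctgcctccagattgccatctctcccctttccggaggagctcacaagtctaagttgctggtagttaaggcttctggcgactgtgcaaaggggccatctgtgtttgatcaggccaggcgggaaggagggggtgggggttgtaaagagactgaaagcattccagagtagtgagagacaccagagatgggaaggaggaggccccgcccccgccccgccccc
The motifs were searched on both strands. GAGGAA and AGGAAGT are letters bound by ETS factors, the family of the macrophage regulator PU.1, and can overlap each other. TATAAA is the letters of a TATA box. P2ry13 held GAGGAA 48 bases before its start site, a motif found in 23.3% of 32851 promoter windows of this length. P2ry12 held AGGAAGT 52 bases before its start site, a motif found in 7.7% of them. Neither of the other windows printed matched any of the 3 motifs, and TATAAA, held by 12.4% of all windows, was in none of the 4. The windows of P2ry12 and P2ry13 were each 41.6% G and C, below the median of 52.4% over all windows, with Cx3cr1 at 53.6% and Olfml3 at 57.6%.

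The libraries held between 5198748 and 13610729 counts. Each of the 9 genes had at least 72 counts in every mouse and passed the filter on low counts, with 15864 genes tested in all. The third young AL mouse stood apart, with 17280 genes detected against 19054 to 20880 in the other mice and a median correlation with the other mice of 0.957 against 0.980 to 0.987. Counts of the mitochondrial ribosomal RNA genes were 0.522 to 0.8% of the total in young mice and 0.839 to 1.07% in old mice, and their part in the results below was not tested. Values below are in CPM, counts scaled to a common library size after TMM, a normalization that rests on the bulk of genes. Where genes are compared with each other, FPKM is used, the same scale divided by the summed exon length.

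Per length, P2ry12 was the highest of the 9 genes, with a mean of 21.1 ± 2.42 FPKM (SD, n = 15 mice), followed by Csf1r at 17.7 ± 1.52 FPKM and Cx3cr1 at 14.3 ± 1.46 FPKM. Gpr34, a receptor of lysophosphatidylserine, had 9.33 ± 1.32 FPKM, Tmem119, a membrane protein used to label microglia, 8.08 ± 1.81 FPKM, and P2ry13, a second ADP receptor, 6.37 ± 1.54 FPKM. The lowest levels were those of Sall1, a transcription factor that holds microglial identity (5.26 ± 1.31 FPKM), Olfml3, a secreted protein (4.85 ± 0.713 FPKM), and Siglech, a sialic acid-binding lectin (4.78 ± 0.816 FPKM). Csf1r was above Cx3cr1, and Cx3cr1 above Gpr34, in 15 of 15 mice. The other neighbours in this order changed places in some mice. P2ry12 was above Csf1r in 12 mice, Gpr34 above Tmem119 in 11, Tmem119 above P2ry13 in 11 and P2ry13 above Sall1 in 11. Sall1 was above Olfml3 in 8 mice and Olfml3 above Siglech in 7, so the 3 lowest genes were not separated.

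**Figure D1:**
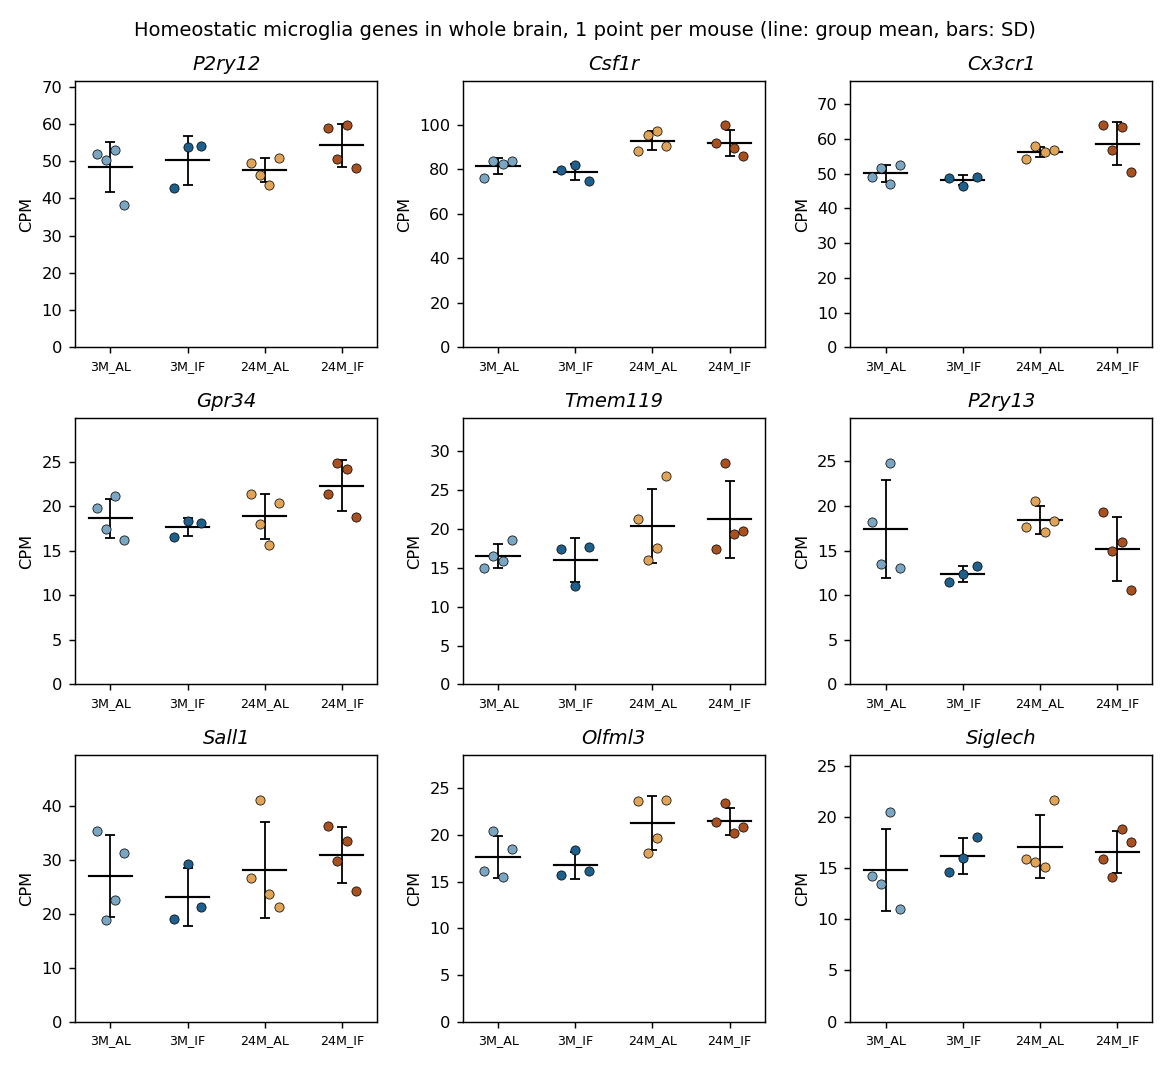
Level of each of the 9 genes in CPM (vertical axes, from 0) in every mouse of the 4 groups (horizontal axes). Points are mice, lines group means and bars SD. Csf1r is the only panel in which all 8 old mice, from 85.8 CPM up, sit above all 7 young mice, up to 83.8 CPM.

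With age, 3 of the 9 genes rose when old and young mice were compared over both diets, and none fell. They were Csf1r, which rose 1.15-fold (95% interval 1.07 to 1.24, FDR = 0.0605), Cx3cr1, which rose 1.17-fold (1.07 to 1.28, FDR = 0.0728), and Olfml3, which rose 1.25-fold (1.10 to 1.42, FDR = 0.0884). The FDR is the Benjamini-Hochberg value over every gene tested from the quasi-likelihood test of edgeR, with a threshold of 0.1, at which 2.3% of all genes tested were called and 1.62% were called increased. All 3 changes were below 1.3-fold, and none had an FDR under 0.05. Without the third young AL mouse, Csf1r (FDR = 0.0517) and Cx3cr1 (FDR = 0.0870) were called and Olfml3 was not (FDR = 0.101), beside 2.56% of all genes called. With the sequencing lane named in the file headers as a covariate, Csf1r alone was called. None of the 9 was called when any 1 of the 3 young IF mice, the third old AL mouse, or the first or the second old IF mouse was left out.

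Csf1r lies on chromosome 18, where it shares exon bases with Hmgxb3 on the opposite strand. It was measured at 88.0, 95.3, 97.2 and 90.4 CPM in the old AL mice and 91.7, 99.7, 89.6 and 85.8 CPM in the old IF mice. In young AL mice it was at 76.0, 83.8, 82.4 and 83.7 CPM and in young IF mice at 79.7, 81.8 and 74.6 CPM. Every old mouse was thus above every young mouse, which held for 0.75% of all genes tested. Within lanes, the mean log2 CPM of old mice was above that of young mice by 0.17, 0.29 and 0.08, the third lane holding 1 young mouse. Within a diet the age difference in log2 was 0.18 in AL mice (SE 0.0712, FDR = 0.377) and 0.22 in IF mice (SE 0.0777, FDR = 0.655), and neither passed the test.

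Cx3cr1 was at 54.2, 57.9, 56.4 and 56.7 CPM in old AL mice and 63.9, 56.9, 63.3 and 50.6 CPM in old IF mice. Young AL mice had 49.2, 51.8, 47.0 and 52.4 CPM and young IF mice 48.8, 46.6 and 49.2 CPM. Within each diet the old and the young mice did not overlap, and over both diets the fourth old IF mouse fell within the young range. The log2 differences within lanes were 0.24, 0.26 and 0.11. Olfml3 was at 23.6, 18.1, 19.7 and 23.8 CPM in old AL mice and 21.4, 23.4, 20.2 and 20.9 CPM in old IF mice, against 16.1, 20.4, 15.5 and 18.5 CPM in young AL and 15.7, 18.4 and 16.2 CPM in young IF mice. Its groups overlapped among AL mice and did not among IF mice, and its log2 differences within lanes were 0.38, 0.29 and 0.22.

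Within each diet taken alone, none of the 9 genes was called for age by edgeR. Of all genes, 1.09% were called in AL mice (0.946% increased) and 0.29% in IF mice (0.258% increased). At an unadjusted p under 0.05, 2 of the 9 differed in AL mice (Csf1r and Olfml3), beside 9.52% of all genes, and 5 of 9 in IF mice (Csf1r, Cx3cr1, Olfml3, Gpr34 and Tmem119), beside 5.74%. DESeq2 and limma voom likewise called none of the 9 within either diet. The fitted age difference was above 0 for 8 of 9 genes in AL mice, where 47.6% of all genes were above 0, and for 9 of 9 in IF mice, where 49.9% were. The median log2 difference of the 9 genes was 0.17 in AL mice and 0.30 in IF mice, and the median of all genes was -0.01 and -0.00 respectively. Old mice lay entirely above young mice for 2 of 9 genes among AL mice (Csf1r and Cx3cr1), beside 2.98% of all genes, and for 4 of 9 among IF mice (also Gpr34 and Olfml3), beside 4.75%. None of the 9 lay entirely lower in old mice, beside 1.58% of all genes among AL and 4.29% among IF mice.

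**Figure D2:**
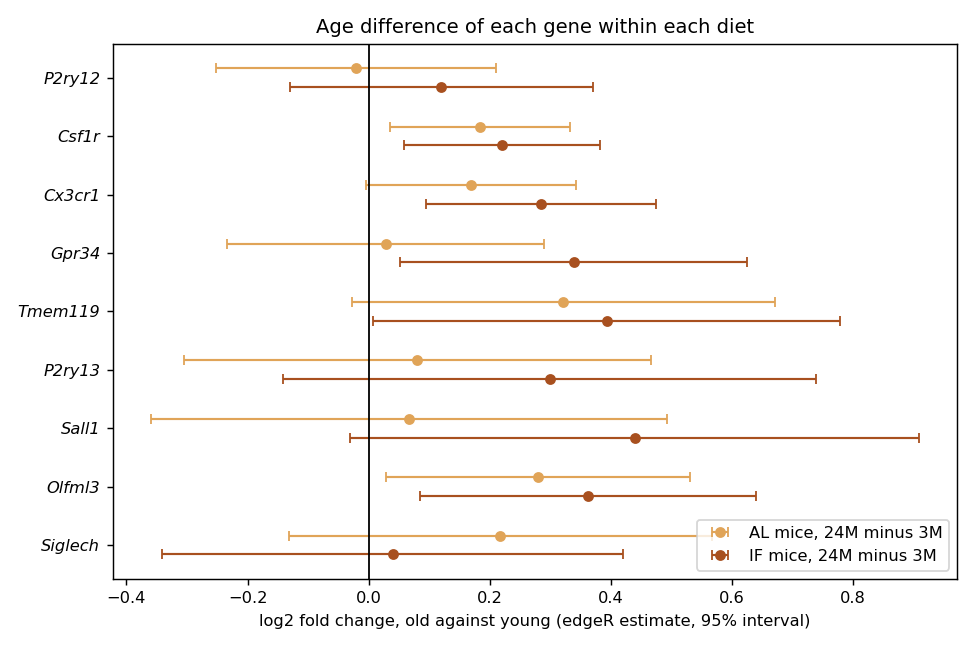
Fitted log2 fold change of old against young mice (horizontal axis) for each of the 9 genes (vertical axis), in AL and in IF mice, with 95% intervals from the edgeR fit. All points but that of P2ry12 in AL mice lie above 0, and the intervals of Csf1r and Olfml3 exclude 0 in both diets.

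P2ry12, the highest of the 9 genes, showed the smallest age difference over both diets, 0.05 in log2 (95% interval -0.12 to 0.22, FDR = 0.870). Old AL mice had 49.5, 46.3, 43.5 and 50.8 CPM and old IF mice 58.9, 50.5, 59.6 and 48.2 CPM. Young AL mice had 51.9, 50.4, 53.0 and 38.3 CPM and young IF mice 42.7, 53.8 and 54.0 CPM. Only 2 of 8 old mice, both IF, were above all young mice. The interval corresponds to a level in old mice between 0.920 and 1.16 times that in young mice. The sign differed between lanes, with log2 differences of 0.16, -0.20 and 0.46 over both diets and -0.05, -0.24 and 0.41 among AL mice. The only young mouse of the third lane was the fourth young AL mouse, the lowest of all at 38.3 CPM.

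P2ry13, its neighbour, was at 17.7, 20.6, 17.0 and 18.3 CPM in old AL mice and 19.3, 14.9, 15.9 and 10.6 CPM in old IF mice. In young AL mice it was at 18.2, 13.5, 24.9 and 13.1 CPM and in young IF mice at 11.5, 12.4 and 13.3 CPM. The highest value of all was that of the third young AL mouse, and no old mouse exceeded it. The age difference over both diets was 0.19 in log2 (95% interval -0.10 to 0.48, FDR = 0.644), and 0.31 (FDR = 0.252) without that mouse. Gpr34 was at 21.4, 18, 15.7 and 20.4 CPM in old AL and 21.4, 24.9, 24.2 and 18.8 CPM in old IF mice, against 19.8, 17.5, 21.2 and 16.2 CPM in young AL and 16.5, 18.4 and 18.1 CPM in young IF mice. Old and young mice were interleaved under AL feeding and apart under IF feeding. The age difference in log2 was 0.03 in AL mice (SE 0.126, FDR = 0.973) and 0.34 in IF mice (SE 0.138, FDR = 0.782), and the difference between them was 0.31 (95% interval -0.08 to 0.70), which did not pass the test of the interaction.

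Tmem119 had the largest fitted age difference over both diets, 1.28-fold (95% interval 1.07 to 1.53), with an FDR of 0.21. It was at 21.3, 16.0, 17.6 and 26.8 CPM in old AL mice and 17.4, 28.6, 19.3 and 19.7 CPM in old IF mice. Young AL mice had 14.9, 16.6, 15.9 and 18.6 CPM and young IF mice 17.5, 12.7 and 17.7 CPM. The fourth old AL and the second old IF mouse were the highest, and 5 of 8 old mice were above all young mice. With no filter on low counts beyond 1 count in any mouse, Tmem119 was called (FDR = 0.0364), and the count of all genes called went from 365 to 653. This was 1 of 23 alternative fits, and Tmem119 was not called in the others.

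Siglech was at 15.9, 15.6, 15.1 and 21.7 CPM in old AL mice and 15.9, 14.1, 18.8 and 17.5 CPM in old IF mice, against 14.2, 13.5, 20.5 and 11.0 CPM in young AL and 14.6, 16.0 and 18 CPM in young IF mice. Its age difference over both diets was 0.13 in log2 (95% interval -0.13 to 0.39, FDR = 0.748). Within the second lane it was -0.27, against 0.18 and 0.80 in the others. The 0.80 rested on the fourth young AL mouse, the only young mouse of the third lane and the lowest of all at 11.0 CPM. Without the third young AL mouse, which had the highest young value, the difference over both diets was 0.24 (95% interval 0.02 to 0.46, FDR = 0.348). It was then 0.44 in AL mice (FDR = 0.353) and 0.05 in IF mice (FDR = 0.967), and none of these passed the test. Sall1 was at 26.6, 41.2, 23.6 and 21.3 CPM in old AL mice and 36.3, 29.8, 33.5 and 24.3 CPM in old IF mice. Young AL mice had 35.3, 18.8, 22.5 and 31.4 CPM and young IF mice 19.0, 29.2 and 21.3 CPM. With all 15 mice, both genes overlapped between old and young mice of either diet and between the diets at either age. The age difference of Sall1 was 0.25 in log2 (95% interval -0.06 to 0.57, FDR = 0.550).

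The genes differed in how tightly mice of a group agreed, and that spread set what the test could resolve. The coefficient of variation within groups was 5.14% for Csf1r and 6.42% for Cx3cr1, little above the 3.62% and 4.62% that counting error alone gives at their counts. It was 10.9% for Olfml3, 11.3% for P2ry12 and 11.7% for Gpr34, where counting error gives 7.7, 4.79 and 7.73% respectively. Siglech (18.7%), Tmem119 (19.5%), P2ry13 (21.3%) and Sall1 (25.9%) varied most, where counting error gives 8.48, 8, 8.62 and 6.55% respectively. The spread of Sall1 was thus the furthest above its counting error.

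No difference with diet was detected in any of the 9 genes. By edgeR, 0 of 9 were called in young mice, in old mice or over both ages, and 0% of all genes were called in each of these comparisons. DESeq2 and limma voom also called none of the 9. For none of the 9 did the diets fail to overlap, whereas of all genes 2.4% were entirely higher and 2.05% entirely lower under IF in young mice, and 1.23% and 1.36% in old mice. At an unadjusted p under 0.05, 1 of the 9 differed in young mice (4.14% of all genes), 0 in old mice (2.58%) and 1 over both ages (4.51%), in both cases P2ry13. These counts were 0, 0 and 1 without the third young AL mouse. In old mice the 9 log2 differences, IF minus AL, ran from -0.28 for P2ry13 to 0.23 for Gpr34 with a median of 0.03, and 6 of 9 were above 0, beside 50.8% of all genes. Over both ages 4 of 9 were above 0, beside 50.2% of all genes. The intervals bound these differences most tightly for Csf1r, for which the level in old IF mice was between 0.893 and 1.10 times that in old AL mice, and for Cx3cr1, between 0.925 and 1.18 times. In young mice the differences ran from -0.50 for P2ry13 to 0.12 for Siglech with a median of -0.05, and 2 of 9 were above 0, beside 49.2% of all genes. Leaving out the third young AL mouse, they ran from -0.31 for Sall1 to 0.33 for Siglech, with P2ry13 at -0.26 and a median of -0.05. The test of whether the age difference depended on diet called 0 of 9 genes and 0% of all genes, with 0 of 9 at an unadjusted p under 0.05 beside 2.28% of all genes. The age difference in IF mice minus that in AL mice was above 0 for 8 of 9 genes, beside 51.5% of all genes, with a median of 0.12 in log2. DESeq2 and limma voom called none of the 9 in it either.

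P2ry13 had the largest diet difference of the 9, with a fitted level in IF mice over both ages of 0.765 times that in AL mice (95% interval 0.624 to 0.937, FDR = 0.983). Without the third young AL mouse, which had the highest P2ry13 value, the log2 difference went from -0.39 to -0.27 (FDR = 0.814). P2ry12 had a difference of the opposite sign, 0.12 in log2 (95% interval -0.05 to 0.29, FDR = 0.983). The pair was then set against each other within each mouse, a comparison chosen after the values had been seen. P2ry13 was 35.7, 44.5, 39.1 and 36.1% of P2ry12 by CPM in old AL mice and 32.7, 29.5, 26.7 and 22.0% in old IF mice, so that the 2 groups did not overlap. Of the other 8 genes set against P2ry12 in this way, P2ry13 was the only one lower in old IF mice without overlap, beside 5.35% of all genes. A count of 1 in 8 is too small to tell from that share. In young AL mice it was 35.0, 26.7, 46.9 and 34.1% and in young IF mice 26.9, 23.0 and 24.6%, and these groups overlapped.

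**Figure D3:**
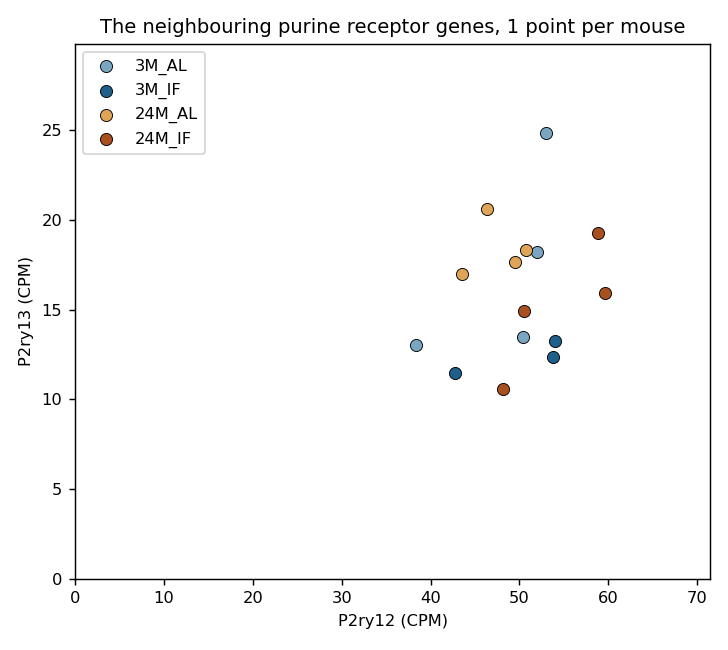
CPM of P2ry13 (vertical axis) against CPM of P2ry12 (horizontal axis) in each of the 15 mice, coloured by group. Relative to P2ry12, P2ry13 is lower in old IF mice, at 22.0 to 32.7% of it, than in old AL mice, at 35.7 to 44.5%. This ratio was chosen after the values had been seen, and 5.35% of all genes were likewise lower without overlap. P2ry13 alone overlaps between these 2 groups.

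Mouse by mouse, the 9 genes moved together only in part. Over the 36 pairs of genes, the Pearson correlation of log2 CPM over 15 mice had a median of 0.319 and ran from -0.219 to 0.740. Age is shared by these points, and once group means were removed the median fell to 0.0497, with 24 of 36 pairs above 0 and a range of -0.508 to 0.676. P2ry12 and P2ry13 kept a correlation of 0.646 with group means removed (0.629 without the third young AL mouse), and P2ry12 and Siglech one of 0.657 (0.656). Csf1r and Siglech had one of -0.417 (-0.648). These are descriptions over few mice in groups of 3 or 4.

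Genes most like the 9 in their course over the mice, by the correlation of log2 CPM with the mean of the 9 standardized genes, included Spag6 (r = 0.871 over 15 mice), Ifi27 (0.868), Tap1 (0.858) and Pcdhb9 (0.847). Ifi27 is induced by interferon and Tap1 carries peptides for antigen presentation. Without the third young AL mouse, Ifi27 (0.881), Spag6 (0.872) and Tap1 (0.868) stayed among the first 5, and ENSMUSG00000095041 (0.865) took the place of Pcdhb9. The old and the young mice are separate clusters of points here, and the correlations hold that age difference.

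Ligands and partners of the 9 genes were looked at next. Of 18 listed, 17 were tested, and 2 were called increased with age in AL mice, 0 in IF mice and 2 over both diets. Those called were Csf1 and Tyrobp. Without the third young AL mouse 1 was also called in IF mice, Tyrobp. The median log2 difference of the list was 0.00 in AL mice. Csf1, a ligand of Csf1r, was at 26.7, 28.2, 33.7 and 27.2 CPM in old AL mice and 20.4, 20.6, 16.3 and 21.5 CPM in young AL mice. These groups did not overlap, and Csf1 rose 1.46-fold in AL mice (95% interval 1.25 to 1.72, FDR = 0.0162). In IF mice the level of Csf1 in old mice was 1.06 times that in young mice (0.889 to 1.26, FDR = 0.995), with young IF mice at 23.7, 25.8 and 28.4 CPM and old IF mice at 29.4, 25.8, 25.1 and 29.2 CPM. The difference between these age effects was -0.47 in log2 (95% interval -0.81 to -0.13) and did not pass the test over all genes. Il34, the other ligand of Csf1r, had an age difference over both diets of -0.04 in log2 (95% interval -0.17 to 0.10).

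Cx3cl1, the ligand of Cx3cr1, had a mean of 543 CPM in old AL and 503 CPM in old IF mice, against 618 CPM in young AL and 564 CPM in young IF mice. Its level in old mice over both diets was 0.884 times that in young mice (95% interval 0.821 to 0.953), with an FDR of 0.106, just outside the threshold. Tyrobp, the adaptor through which Siglech signals, was at 20.1, 18.4, 22.1 and 21.3 CPM in old AL mice and 8.80, 9.53, 8.91 and 10.9 CPM in young AL mice, a 2.14-fold rise (95% interval 1.77 to 2.59, FDR = 6.26e-05). In IF mice Tyrobp was 1.54 times as high in old as in young mice, with an FDR of 0.126. Siglech itself did not pass the test in either diet. Tgfbr1 and Tgfbr2, receptors of the TGF-β signal that microglia depend on for their identity, were 1.16 times as high in old as in young mice over both diets, with FDRs of 0.200 and 0.181. The ligand Tgfb1 (log2 difference -0.05) and the signal carrier Smad3 (-0.08) were not called. Entpd1, which breaks down ATP and ADP ahead of P2ry12, had an age difference of 0.03 in log2 (95% interval -0.18 to 0.23). The kin of P2ry12, namely P2ry6 (0.26), P2ry14 (-0.20) and Gpr183 (-0.22), were not called, and neither were Abhd16a (0.00) and Abhd12 (0.04), which make and break down lysophosphatidylserine, Sall2 (-0.09), Sall3 (0.01) or Med12l (-0.12). Hcst, with 16 counts in all mice, was not tested.

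The 9 genes were set beside other lists of microglial and macrophage genes, and whether the lists differed from each other was not tested. Of 18 genes that microglia and other macrophages make in any state, 12 were called increased in AL mice, 5 in IF mice and 13 over both diets, with a median log2 difference of 0.81 in AL and 0.53 in IF mice. They included Ctss, a lysosomal protease (1.93-fold in AL mice, 95% interval 1.72 to 2.17, FDR = 4.56e-07), C1qa, a chain of complement C1q (2.14-fold, 1.78 to 2.57, FDR = 5.03e-05), and Tyrobp. Of 22 disease-associated genes tested, 13 were called increased in AL mice, 8 in IF mice and 17 over both diets, with medians of 0.51 and 0.48. Lyz2, a lysozyme, rose 4.02-fold in AL mice (95% interval 3.36 to 4.80), and Itgax, an integrin chain, rose 14.9-fold (7.57 to 29.2) from 1 or 2 counts in each young AL mouse to 11 to 29 in each old AL mouse. Of 20 other homeostatic genes, 3 were called increased in AL mice, 1 in IF mice and 5 over both diets, with medians of 0.33 and 0.16. Csf3r, a receptor of a granulocyte growth factor, rose 2.03-fold in AL mice (95% interval 1.46 to 2.84, FDR = 0.0340) and Selplg, a ligand of selectins, 1.54-fold (1.23 to 1.94, FDR = 0.0760). Without the third young AL mouse, the counts of macrophage genes were 14, 7 and 15, of disease-associated genes 12, 11 and 18, and of other homeostatic genes 2, 1 and 5, with Selplg not called in AL mice (FDR = 0.187). No gene of these lists was called decreased with age. Some genes, among them Tyrobp, Csf1 and Entpd1, stand in more than 1 list.

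**Figure D4:**
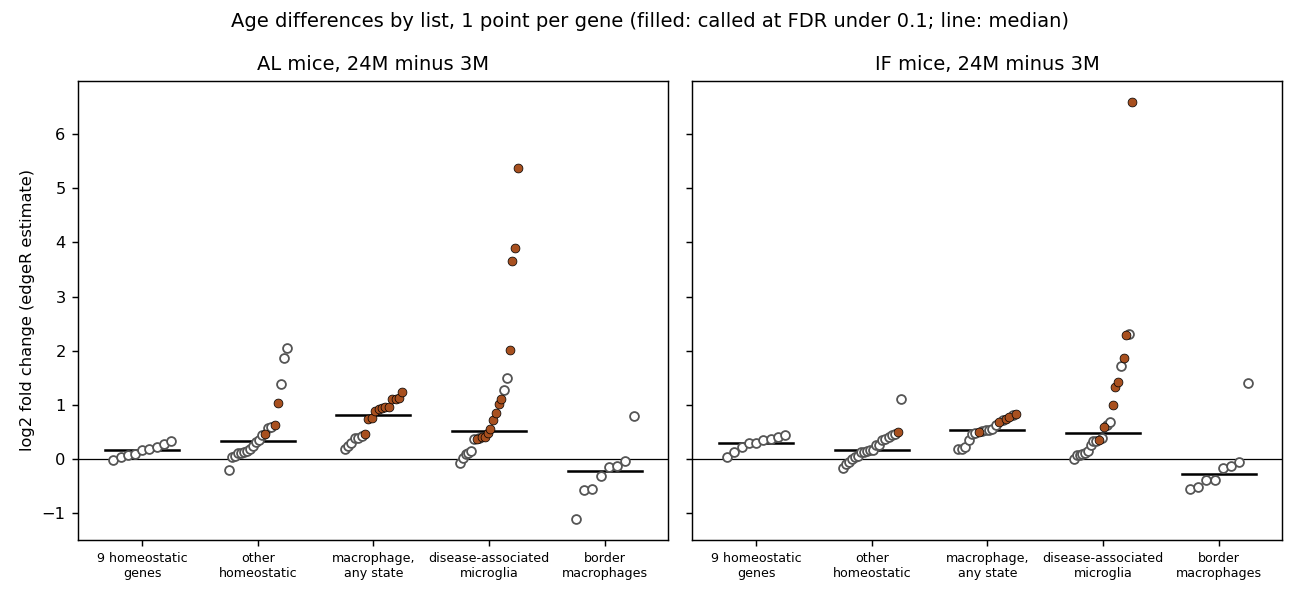
Fitted log2 fold change of old against young mice (vertical axis) for each gene tested in 5 lists (horizontal axis), in AL mice (left) and IF mice (right). Filled points were called at FDR under 0.1 and lines are medians, which for the 9 homeostatic genes are 0.17 and 0.30 and for the macrophage genes 0.81 and 0.53.

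In summed CPM, the 9 genes went from 283 to 303 in young AL mice and 266 to 289 in young IF mice to 306 to 330 in old AL mice and 296 to 346 in old IF mice. The 18 macrophage genes went from 362 to 409 and 357 to 388 in the young groups to 569 to 690 in old AL and 526 to 585 in old IF mice. The 9 genes were thus 71.1 to 81.8% of the macrophage sum in young AL mice, 72.7 to 77.1% in young IF mice, 44.4 to 57.9% in old AL mice and 56.4 to 62.6% in old IF mice. Every old mouse was below every young mouse, while old AL and old IF mice overlapped. Taken singly, 5 of the 9 genes (P2ry12, Csf1r, Cx3cr1, Gpr34 and Tmem119) were lower without overlap in old than in young AL mice when set against the macrophage sum, beside 65.1% of all genes. In IF mice 6 of the 9 were (P2ry12, Csf1r, Cx3cr1, Gpr34, Olfml3 and Siglech), beside 73% of all genes. These shares are no higher than those of all genes, so the lower ratio is not particular to the 9. In old mice, the ratio to the macrophage sum was higher under IF without overlap for 1 of the 9 genes, beside 7.91% of all genes. This gene was P2ry12, at 8.64 to 10.7% under IF and 6.31 to 8.28% under AL. A count of 1 of 9 is near the share of all genes, so this too is not particular to the 9.

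**Figure D5:**
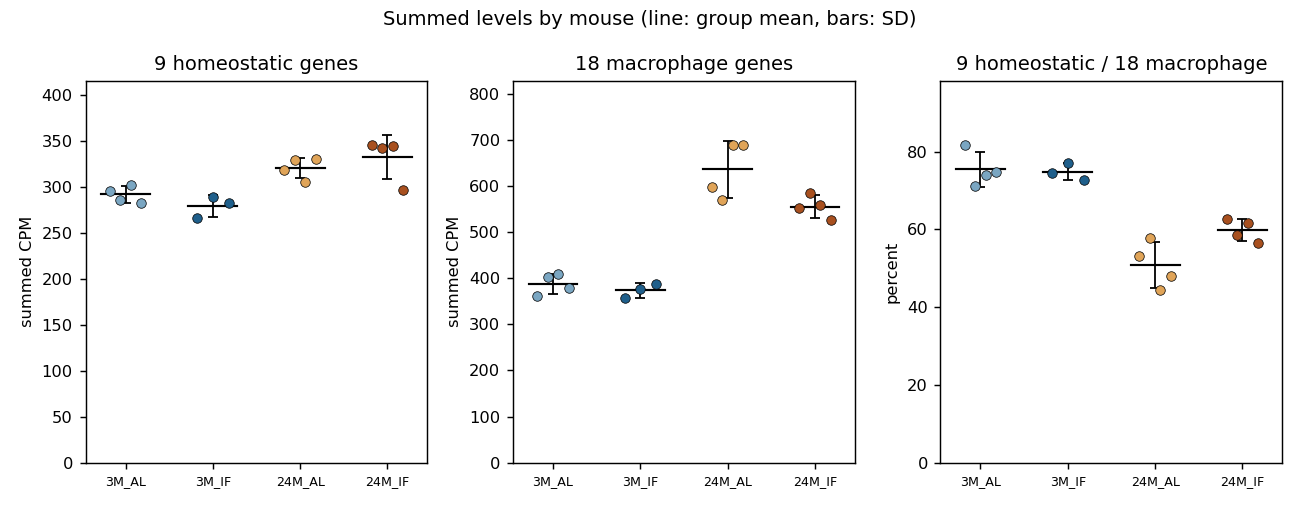
Summed CPM of the 9 homeostatic genes (left), of 18 genes that macrophages make in any state (middle), and the first as a percentage of the second (right), in every mouse of the 4 groups, with means (lines) and SD (bars) and axes from 0. The percentage lies at 71.1 to 81.8% in young and 44.4 to 62.6% in old mice.

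Both lists were also described by diet in old mice. Of the 18 macrophage genes, 1 had a log2 difference, IF minus AL, above 0, the median was -0.28 and 8 were at an unadjusted p under 0.05, but none was called. Of the 9 homeostatic genes 6 were above 0, the median was 0.03 and none was at an unadjusted p under 0.05. Of all genes, 50.8% were above 0, 2.58% were at an unadjusted p under 0.05 and 0% were called. Whether the lists differed from each other was not tested.

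Markers of other cells were looked at in the same mice. Of 12 genes of border macrophages, which lie along vessels and in the meninges, 8 were tested and none was called for age, and 7 of the 8 had an age difference below 0 in AL mice. Their summed CPM was 33.3 to 43.1 in young AL, 29.0 to 36.6 in young IF, 25.0 to 36.7 in old AL and 25.8 to 28.7 in old IF mice. Of 12 monocyte and granulocyte genes, 2 were tested and 1 (S100a9) was called increased over both diets (FDR = 0.0735), but not without the third young AL mouse. Ly6g had 0 counts and Ly6c2 had 14 over all mice. The summed CPM of the 12 genes was 0.00 to 2.89 in young mice and 1.12 to 24.4 in old mice. The 24.4 was that of the third old AL mouse, and the next highest old mouse had 4.79. None of 10 neuronal, 11 endothelial and mural, 8 choroid plexus or 5 red blood cell genes was called for age. Over both diets, 3, 5, 8 and 5 of them respectively had an age difference above 0, beside 48.5% of all genes. At an unadjusted p under 0.05 there were 1, 5, 1 and 3 respectively, beside 11.7% of all genes. Of 10 genes each, 2 astrocyte genes (Gfap and S100b) and 2 oligodendrocyte genes (Ermn and Mbp) were called increased in AL mice, and of 8 oligodendrocyte precursor genes 1 (Gpr17) was called decreased over both diets. Of 6 pituitary hormone genes 3 were tested and 2 (Gh and Prl) were called increased in AL mice. The summed CPM of the 6 was 1039 in the fourth old AL mouse, 18.2 in the third and at most 8.19 in every other mouse. Without the third young AL mouse, Mbp (FDR = 0.156) and Prl (FDR = 0.177) were not called in AL mice and Gpr17 was also called in IF mice. The part of these markers in the results on the 9 genes was not tested.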

How the data were processed

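RNA was sequenced from whole brains of 15 mice in 4 groups. The authors trimmed single-end reads with custom software, aligned them to Ensembl GRCm38 with STAR (version not given in the sources used here) and counted unique reads with featureCounts 1.5.0-p1 on Ensembl release 79, by strand and with a minimum mapping quality of 5. The deposited values are raw counts per gene, 1 table per mouse, without normalization. All further values were computed here.

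Of 43629 genes, 42462 received a symbol. Genes passing filterByExpr (15864) entered the quasi-likelihood test of edgeR 4.0.16 (R 4.3.3), with TMM factors, 1 fit of the 4 group means, Benjamini-Hochberg adjustment over all genes, FDR under 0.1 as in the study. The script was tested on simulated data. Alternatives were low-count filters (1 count in any mouse, 10 in every mouse), RLE size factors, no TMM, DESeq2 1.42.0, limma 3.58.1 voom with quality weights, FDR under 0.05, lane, replicate block, a fit of the compared groups alone, and omission of every mouse in turn. For correlations, log2 CPM had a prior count of 2. Total counts ranged from 5198748 to 13610729, and genes of few counts are measured with little precision. Ratios to P2ry12 and to the macrophage sum, and values within lanes, were chosen once results had been seen. The members and lists were chosen with earlier results of these data known. Named genes were the 9, their partners, the 3 called genes with the smallest p for age in AL mice of the other homeostatic, macrophage and disease-associated lists plus any called for diet, and the 5 genes most correlated with the 9; 1 gene that the rule names is not reported here. Other genes are marker genes of the lists, named after their values were seen.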

Additional observations from a re-analysis of the deposited data

Results flagged for a closer look

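Siglech stood at 21.7 CPM in the fourth old AL mouse, far from the 15.1 to 15.9 CPM of the other 3 mice of that group. The gap to the nearest of them exceeded Dixon's 95% critical value for 4 samples. It was the only one of 27 checks, over 9 genes and 3 groups of 4 mice, to do so, and chance flags about 1 in 20 groups. The fourth old AL mouse also had a summed CPM of 1039 for pituitary hormone genes, and a link to its Siglech value was not tested.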

How the results depend on the processing

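For age over both diets, 3 of the 9 genes were called (Csf1r, Cx3cr1 and Olfml3). With lane as a covariate 1 was called, with the replicate number as a block 0, and at an FDR under 0.05 0. The cause was not tested. Leaving out 1 mouse at a time gave 0 to 3. No gene was called without any 1 of the 3 young IF mice, the third old AL mouse, or the first or second old IF mouse. Csf1r alone was called without the first young AL or the fourth old AL mouse, and Olfml3 alone without the second old AL mouse. The FDR of Csf1r lay between 0.105 and 0.157 wherever leaving out a mouse ended its call, and its log2 difference between 0.18 and 0.22. Tmem119 was called once the low-count filter was lowered to 1 count in any mouse (FDR = 0.0364). In the other comparisons none of the 9 was called under any alternative. Over all comparisons, genes and alternatives, 33 values lost a call, 1 gained one, 1451 did neither, and no called value changed sign.

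The replicate numbers did not pair the mice, since deviations from the group means had a mean correlation of -0.0266 (range -0.113 to 0.113) between mice of the same number. The block left 0 of the 9 genes called and moved the count of all genes called for age over both diets from 365 to 250.

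Over both diets the main count of all genes called for age, 365, became 653 with every gene of at least 1 count, 237 with lane as a covariate, 229 at an FDR under 0.05, and 216 to 425 with 1 mouse left out. In AL mice 173 became 444 with every gene of at least 1 count, 86 with only the groups compared and 102 to 221 with 1 mouse left out. In IF mice 46 became 100 with every gene of at least 1 count, 72 by DESeq2, 125 by limma voom and 19 to 76 with 1 mouse left out. For diet and for the interaction the main count was 0. Every gene of at least 1 count gave 26 in young mice, 27 in old mice, 65 over both ages and 26 for the interaction. DESeq2 gave 1 in young mice, and limma voom and the lane covariate gave 2 each in old mice.

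Each of the 9 genes had 72 to 1095 counts in a mouse, and for most of them the spread between mice was well above the counting error at that depth.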
